A study of Homo sapiens with 11 samples.

Results

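DNA double-strand break repair was followed at the mRNA level through 41 genes of 61542 in the table. They were chosen by name for their place in 3 routes: 18 genes of DNA end resection and homologous recombination, 11 of the Fanconi anaemia pathway, and 12 of end joining and of the choice between the routes. Estimated read counts of transcripts were summed to genes and compared between treatments. SK-MEL103, an established human melanoma cell line, was grown for 6 days in the solvent DMSO (4 samples), in 0.25 µM etoposide (4 samples) or in 0.5 µM tozasertib (3 samples, replicates 1, 2 and 4), with fresh medium and fresh drug on day 3. Etoposide traps topoisomerase II on cut DNA and so makes double-strand breaks, whereas tozasertib blocks the Aurora kinases of mitosis. The labels call the DMSO samples non-senescent and the drug-treated samples senescent, that is, in a lasting arrest of division, and the study used the samples to look at the expression programme of that state. All samples come from 1 cell line, nothing in the sources says that replicates were separate cultures, and p-values therefore cover no more than the spread among these samples, technical spread included. In a bulk sample, fewer cells expressing a gene and less of its RNA per cell cannot be told apart.

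Homologous recombination copies the lost sequence from a sister chromatid and is therefore used mainly in S phase and G2. Nucleases cut back the broken end to single-stranded DNA, and mediator proteins then load a recombinase that finds the matching sequence. The Fanconi proteins detect cross-links between DNA strands, a core complex attaches ubiquitin to the FANCD2 and FANCI pair, and the resulting breaks are passed to recombination. Non-homologous end joining ligates ends directly and works in all phases of the cycle: the Ku heterodimer holds the ends, the kinase encoded by PRKDC and the nuclease Artemis prepare them, and ligase IV seals them. TP53BP1 and the shieldin complex protect ends from resection, and polymerase theta joins resected ends through short matching sequences.

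Totals ran from 27882689 to 56534763 estimated reads per sample, and all 41 members passed the filter on low counts together with 17033 genes in all. Levels are written as CPM, the usual count relative to the sample's total, after TMM scaling, and fold changes as the log2 values fitted by edgeR. A gene was called higher or lower at an adjusted p under 0.05. SOX10, a transcription factor of the melanocyte lineage, was well expressed, at 514.4 ± 26.4 CPM (SD, n = 4) with DMSO. It was called lower under both drugs, at 323.3 ± 8.93 CPM (SD, n = 4) with etoposide and 379.8 ± 3.29 CPM (SD, n = 3) with tozasertib. Of the other markers of this lineage, PAX3 was called lower, and MITF and S100B higher, under both drugs. PMEL was called higher under tozasertib alone, at 3.86 ± 0.518 CPM against 0.326 ± 0.189 CPM with DMSO. The pigment cell genes MLANA and TYR were at or near 0 in every group, and DCT was near 0. Of the fibroblast markers, the summed level of 6 genes lay within 24.8 to 29.8 CPM (DMSO), 137.4 to 154.1 CPM (etoposide) and 119.1 to 123.6 CPM (tozasertib), nearly all from LUM and COL1A1, with DCN and FAP near 0. The sum of 4 immune markers ran from 34.7 to 68.2 CPM over all samples and came from CD68, with PTPRC and CD3E near 0. Of 5 keratinocyte markers, with KRT5 and KRT1 near 0, the sum ran from 48.2 to 68.2 CPM and came from KRT10. The part of these markers in the results was not tested. Within the DMSO group, the samples differed by gene length: the deviation of a gene from its group mean had a Spearman correlation with gene length of -0.479 in replicate 1 and 0.403 in replicate 4, against -0.077 to 0.223 in the other 9 samples. Counts below are therefore also given with DMSO replicates 2 and 3 as the only controls.

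The recombination and Fanconi genes fell under etoposide, most of them to well below the DMSO level, while the end joining genes fell less or rose. Of the 29 recombination and Fanconi genes, 24 were lower, 1 was higher and 4 were not called, with a median log2 fold change of -1.31. Of the 12 end joining genes, 8 were lower, 2 were higher and 2 were not called, with a median of -0.37. Across all 17033 genes tested, 58.3% were called, 30.6% lower and 27.7% higher, and the median was -0.01. The share called lower was thus 82.8% in the first class and 66.7% in the second, both above the 30.6% of all genes. The classes lay further apart in size than in number: 17 of 29 recombination and Fanconi genes were lower by at least 2-fold, against 1 of 12 end joining genes, POLQ, and 7.62% of all genes. With DMSO replicates 2 and 3 as the only controls, 25 and 8 genes were lower and the first median was -1.24.

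**Figure D1:**
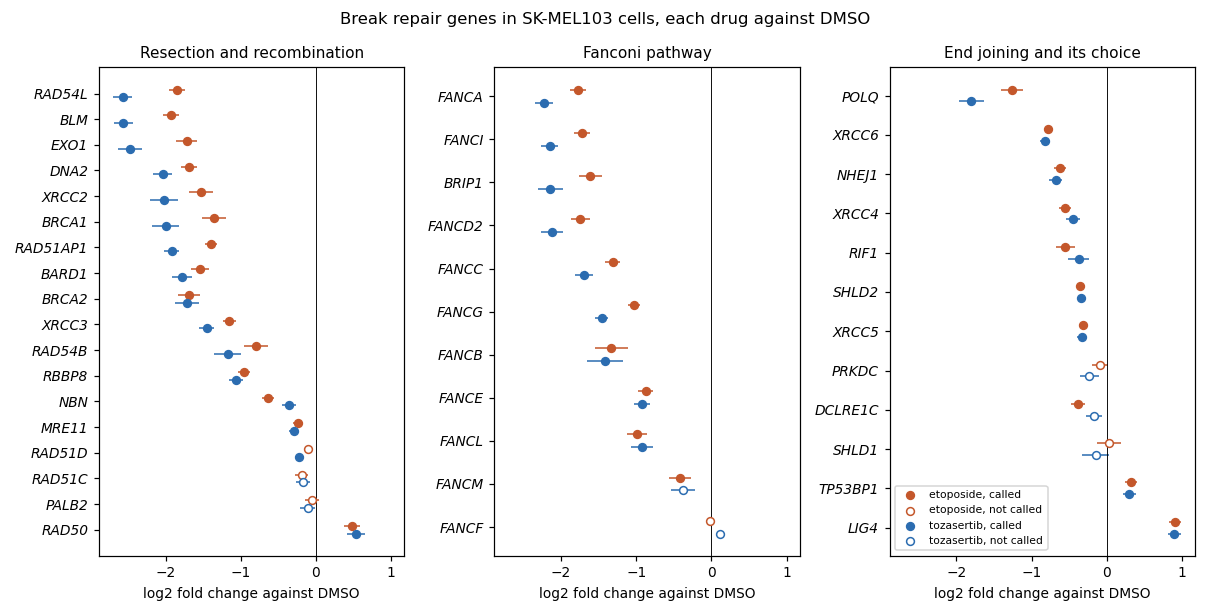
Log2 fold change of each of the 41 genes against DMSO, with the standard error as a horizontal bar, under etoposide (orange) and tozasertib (blue). Filled points passed an adjusted p of 0.05 and open points did not. Most points of the recombination and Fanconi panels lie left of -1, whereas POLQ is the only end joining gene there.

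Tozasertib gave the same division. Of the 29 recombination and Fanconi genes, 24 were lower, 1 was higher and 4 were not called, and the median log2 fold change was -1.46. In this class 19 were lower by at least 2-fold. Of the 12 end joining genes, 7 were lower, 2 were higher and 3 were not called, with a median of -0.34, and POLQ alone was lower by at least 2-fold. Among all genes tested, 59.2% were called, 29.4% lower and 29.9% higher, 7.26% were lower by at least 2-fold, and the median was 0.02. With DMSO replicates 2 and 3 alone, 25 recombination and Fanconi genes and 8 end joining genes were lower. Both drugs were compared with the same DMSO samples, so the likeness of the 2 sets of counts is not independent evidence.

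The summed level shows the same contrast in each sample. The recombination and Fanconi genes together took 706.5 to 771.8 CPM in the DMSO samples, 365.1 to 397.9 CPM in the etoposide samples and 328.0 to 370.4 CPM in the tozasertib samples. The end joining genes took 1356.5 to 1452.6, 1035.5 to 1132.2 and 1073.0 to 1085.5 CPM, so that neither sum overlapped between DMSO and a drug. The end joining sum was carried by XRCC5 and XRCC6, which took 920.1 ± 42.7 CPM (SD, n = 4) with DMSO, 656.2 ± 35.2 CPM (SD, n = 4) with etoposide and 648.6 ± 12.3 CPM (SD, n = 3) with tozasertib. The other 10 end joining genes took 385.5 to 566.6, 429.6 to 446.7 and 424.0 to 438.2 CPM, and their drug-treated samples lay within the DMSO range. The ends of that range were DMSO replicates 1 and 4, which stood apart by gene length, with PRKDC alone at 141.4 and 236.5 CPM. DMSO replicates 2 and 3 lay above all drug-treated samples. The overlap therefore does not show that these 10 genes kept their level. Genes of the dividing cell were lower too. All 33 genes of a DNA replication list and all 20 of a mitosis list were lower under each drug, with medians of -1.55 and -2.11 under etoposide and of -2.04 and -2.89 under tozasertib, and the part of the change in division in the results was not tested.

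**Figure D2:**
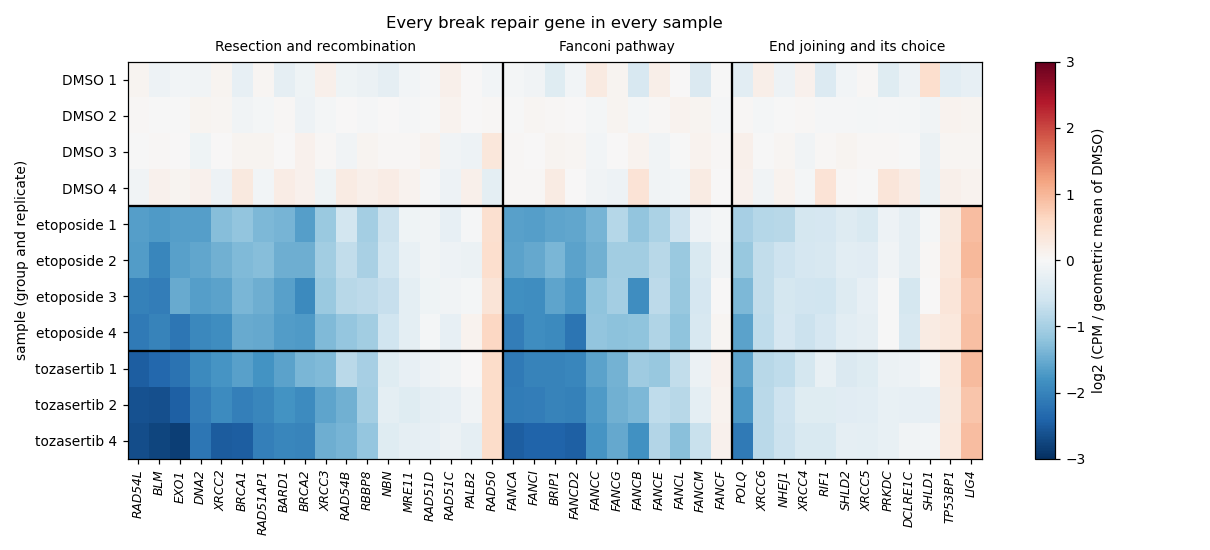
Log2 of the CPM of each gene (columns) in each of the 11 samples (rows) over the geometric mean of the DMSO samples. Blue is lower and red is higher, black lines separate gene classes and treatments, and the scale ends at -3 and 3. Every drug-treated sample is blue over most of the first 2 blocks of columns, and LIG4, at the far right, is red in all 7 drug-treated samples.

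The break-end complex of MRE11, RAD50 and NBN, which recognises breaks and starts resection, did not move as 1 unit. RAD50, the ATPase that tethers the ends, measured 10.7, 11.6, 14.4 and 9.27 CPM in the DMSO samples, 15.8, 16.2, 14.8 and 17.4 CPM in the etoposide samples and 16.6, 16.6 and 16.7 CPM in the tozasertib samples. RAD50 overlaps a protein-coding gene on the same strand that held 60.95 reads on average against 509.5 for RAD50. All 7 drug-treated samples were above all DMSO samples, and RAD50 was the only member of the recombination and Fanconi classes that rose. On the log2 scale it changed by 0.48 ± 0.11 (SE; adjusted p = 0.00253) under etoposide and 0.53 ± 0.12 (SE; adjusted p = 0.0018) under tozasertib, and with protein-coding transcripts alone the rise under tozasertib was 0.28 (adjusted p = 0.128), an alternative chosen after seeing the data. MRE11, the nuclease of the complex, fell slightly, by 0.24 ± 0.07 (SE; adjusted p = 0.008) under etoposide and 0.29 ± 0.07 (SE; adjusted p = 0.00332) under tozasertib on the log2 scale, and the first of these calls was lost with scaling by library size alone (adjusted p = 0.0562) and with protein-coding transcripts alone (adjusted p = 0.055). NBN, its regulatory subunit, had log2 fold changes of -0.64 ± 0.08 (SE; adjusted p = 2.08e-05) under etoposide and -0.36 ± 0.09 (SE; adjusted p = 0.00413) under tozasertib.

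The genes that carry resection further fell more. BLM, the helicase that unwinds the end for the nucleases and later dissolves recombination intermediates, measured 18.1, 20.2, 20.8 and 22 CPM in the DMSO samples, 6.19, 5.21, 4.79 and 5.03 CPM in the etoposide samples and 3.98, 3.26 and 3.01 CPM in the tozasertib samples. The groups did not overlap, and the log2 fold change was -1.93 ± 0.11 (SE; adjusted p = 9.08e-09) under etoposide and -2.56 ± 0.13 (SE; adjusted p = 2.61e-09) under tozasertib. DNA2 (chr10:68414064-68472121, minus strand, GRCh38), the nuclease that works with BLM, measured 15.7, 17.9, 15.3 and 18.5 CPM in the DMSO samples, 5.36, 5.67, 5.38 and 4.4 CPM in the etoposide samples and 4.5, 3.99 and 3.72 CPM in the tozasertib samples. Its fold change on the log2 scale was -1.69 ± 0.11 (SE; adjusted p = 1.94e-08) under etoposide and -2.04 ± 0.12 (SE; adjusted p = 1.04e-08) under tozasertib. EXO1, the other long-range nuclease, measured 30.2, 31.9, 32.7 and 34.1 CPM in the DMSO samples, 10.3, 10.4, 11.2 and 7.16 CPM in the etoposide samples and 6.89, 5.88 and 4.54 CPM in the tozasertib samples, and changed by -1.72 ± 0.14 (SE; adjusted p = 1.8e-07) under etoposide and -2.47 ± 0.16 (SE; adjusted p = 2.28e-08) under tozasertib. RBBP8, which encodes CtIP, the activator of the first cut, was lower by 1.94-fold and 2.08-fold, less than the genes for the long-range enzymes.

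Among the genes of strand exchange, RAD54L and RAD51AP1 had the clearest falls. RAD54L, a motor protein that remodels DNA around the recombinase filament, measured 21.7, 21.3, 20.6 and 19.1 CPM in the DMSO samples, 6.58, 6.51, 5.04 and 4.78 CPM in the etoposide samples and 3.73, 3.4 and 3.29 CPM in the tozasertib samples. It was 3.6-fold lower under etoposide, -1.85 ± 0.11 (SE; adjusted p = 1.18e-08), and 5.93-fold lower under tozasertib, -2.57 ± 0.13 (SE; adjusted p = 2.38e-09), the largest fall of any member in this comparison. RAD51AP1 (chr12:4538798-4560047, plus strand, GRCh38), a partner that stabilises the joint between strands, measured 27.6, 25.3, 27.7 and 24.9 CPM in the DMSO samples, 10.4, 10.9, 9.52 and 9.15 CPM in the etoposide samples and 7.66, 6.76 and 6.33 CPM in the tozasertib samples. No drug-treated sample reached the DMSO range, and the log2 fold changes were -1.40 ± 0.08 (SE; adjusted p = 1.37e-08) under etoposide and -1.92 ± 0.1 (SE; adjusted p = 2.42e-09) under tozasertib. RAD54B, the relative of RAD54L, was 1.75-fold and 2.26-fold lower, and it shares a strand and an overlapping locus with FSBP, so that its reads are less certain.

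The mediators that load the recombinase were split. BRCA1 and BARD1, which form a ubiquitin ligase that favours resection, were 2.56-fold and 2.91-fold lower under etoposide and 4.01-fold and 3.44-fold lower under tozasertib. BRCA1 measured 19.5, 21.4, 24.3 and 28.2 CPM in the DMSO samples, 10.2, 9.23, 8.9 and 8.1 CPM in the etoposide samples and 7.47, 5.6 and 4.18 CPM in the tozasertib samples. BRCA2, the loader itself, was 3.22-fold and 3.27-fold lower. PALB2, the bridge between BRCA1 and BRCA2, measured 15.8, 15.9, 14.1 and 17.4 CPM in the DMSO samples, 15.3, 13.9, 15.1 and 16.9 CPM in the etoposide samples and 16, 14.7 and 13.1 CPM in the tozasertib samples. Its groups overlapped and it was not called, with log2 fold changes of -0.05 ± 0.09 (SE; adjusted p = 0.675) under etoposide and -0.11 ± 0.1 (SE; adjusted p = 0.352) under tozasertib. BRCA1 overlaps a long non-coding RNA on the same strand that held 357.1 reads on average against 434.9 for BRCA1, so the division of reads between them depends on the authors' estimation.

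The paralogs of the recombinase, which help its filament to form, were split in the same manner. XRCC2 and XRCC3 were 2.9-fold and 2.22-fold lower under etoposide and 4.06-fold and 2.73-fold lower under tozasertib. RAD51C was not called under either drug, at -0.19 ± 0.09 (SE; adjusted p = 0.0743) under etoposide and -0.17 ± 0.09 (SE; adjusted p = 0.131) under tozasertib. It was called lower under both with an offset for transcript length, at -0.39 and -0.44 on the log2 scale (adjusted p = 0.0144 and 0.0128), and under etoposide without DMSO replicate 4 (-0.24, adjusted p = 0.0321). Over all alternatives RAD51C ran from -0.39 to -0.08 under etoposide and from -0.44 to 0.17 under tozasertib. RAD51D measured 32, 32.6, 35.4 and 32.2 CPM in the DMSO samples, 30.5, 30.6, 30.4 and 31.7 CPM in the etoposide samples and 29.5, 27.6 and 27.8 CPM in the tozasertib samples. It was called lower under tozasertib, -0.22 ± 0.06 (SE; adjusted p = 0.00592), against -0.10 ± 0.06 (SE; adjusted p = 0.132) under etoposide. The difference between the drugs was -0.12 ± 0.06 (SE; adjusted p = 0.235), and the call under tozasertib was lost with scaling by library size (adjusted p = 0.093) and with the length offset (adjusted p = 0.695). With DMSO replicates 2 and 3 as the only controls, RAD51D was called lower under etoposide too (-0.15, adjusted p = 0.0451).

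In the Fanconi pathway, 10 of 11 genes fell under etoposide and 9 of 11 under tozasertib, against 30.6% and 29.4% of all genes tested. None was called higher, against 27.7% and 29.9%, although FANCF was called higher under tozasertib in 2 alternatives. The falls were largest for the FANCD2 and FANCI pair, for FANCA and for BRIP1. FANCI (chr15:89243945-89317261, plus strand, GRCh38), the most abundant Fanconi transcript, measured 75.1, 84.1, 81.9 and 83.5 CPM in the DMSO samples, 25.9, 27.8, 22.3 and 22.4 CPM in the etoposide samples and 20.3, 19.1 and 15.3 CPM in the tozasertib samples. Its lowest DMSO sample was well above its highest drug-treated sample, and the log2 fold changes were -1.72 ± 0.1 (SE; adjusted p = 6.46e-09) under etoposide and -2.15 ± 0.11 (SE; adjusted p = 2.68e-09) under tozasertib. FANCD2, its partner, measured 31.1, 33.4, 34.3 and 33.6 CPM in the DMSO samples, 11.3, 10.9, 10 and 7.26 CPM in the etoposide samples and 8.57, 8.09 and 6.06 CPM in the tozasertib samples, and changed by -1.74 ± 0.13 (SE; adjusted p = 1.05e-07) under etoposide and -2.12 ± 0.15 (SE; adjusted p = 5.29e-08) under tozasertib. BRIP1, a helicase that binds BRCA1, was 3.06-fold and 4.41-fold lower. For BRIP1 both calls were lost with protein-coding transcripts alone, at -0.80 (adjusted p = 0.063) and -0.64 (adjusted p = 0.153).

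The core complex that activates the pair did not move evenly. FANCA, a core subunit that pairs with FANCG, measured 28.8, 30, 31 and 31.2 CPM in the DMSO samples, 9.76, 10, 8.42 and 7.19 CPM in the etoposide samples and 6.93, 7.04 and 5.49 CPM in the tozasertib samples, and the log2 fold changes were -1.77 ± 0.11 (SE; adjusted p = 1.4e-08) under etoposide and -2.22 ± 0.12 (SE; adjusted p = 5.73e-09) under tozasertib. FANCC measured 21, 16.7, 16.6 and 16.2 CPM in the DMSO samples, 6.63, 6.48, 7.63 and 7.72 CPM in the etoposide samples and 5.8, 5.43 and 5.16 CPM in the tozasertib samples. DMSO replicate 1 was the highest, and the fall was -1.31 ± 0.1 (SE; adjusted p = 1.8e-07) under etoposide and -1.69 ± 0.12 (SE; adjusted p = 4.9e-08) under tozasertib. FANCG, the partner of FANCA, measured 38.7, 38.7, 36.8 and 32.9 CPM in the DMSO samples, 20.2, 17.8, 18.1 and 15.6 CPM in the etoposide samples and 13.7, 13.6 and 12.7 CPM in the tozasertib samples. It changed by -1.03 ± 0.08 (SE; adjusted p = 2.02e-07) under etoposide and -1.46 ± 0.09 (SE; adjusted p = 2.19e-08) under tozasertib.

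Of the other core genes, FANCB was 2.52-fold and 2.65-fold lower, FANCE 1.83-fold and 1.9-fold, and FANCL, the ubiquitin ligase subunit, 1.99-fold and 1.9-fold. FANCF, the adaptor of the core complex and a gene with a single annotated transcript, was not called: it measured 40.3, 40.1, 41.6 and 41.5 CPM in the DMSO samples, 39.2, 38, 41.1 and 42.5 CPM in the etoposide samples and 44.7, 43.7 and 44.8 CPM in the tozasertib samples, with log2 fold changes of -0.02 ± 0.05 (SE; adjusted p = 0.71) under etoposide and 0.12 ± 0.06 (SE; adjusted p = 0.0817) under tozasertib. With scaling by library size alone FANCF was called higher under tozasertib (0.21, adjusted p = 0.00935), as it was with protein-coding transcripts alone (0.19, adjusted p = 0.00804). FANCM, the translocase that brings the complex to DNA, measured 6.74, 9.63, 9.81 and 10.7 CPM in the DMSO samples, 8.12, 6.61, 6.39 and 6.46 CPM in the etoposide samples and 8.07, 7.43 and 5.73 CPM in the tozasertib samples. Its groups overlapped, and it was called under etoposide, -0.42 ± 0.15 (SE; adjusted p = 0.0312), but not under tozasertib, -0.38 ± 0.16 (SE; adjusted p = 0.0621), while the drugs differed by 0.04 ± 0.16 (SE; adjusted p = 0.919). The FANCM call under etoposide was lost in 10 of 20 alternatives, among them those without DMSO replicate 2, 3 or 4 and without etoposide replicate 2, 3 or 4 (log2 -0.40 to -0.34). Under tozasertib FANCM was called lower without DMSO replicate 1 (-0.51, adjusted p = 0.00512) or tozasertib replicate 1 (-0.49, adjusted p = 0.0431).

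**Figure D3:**
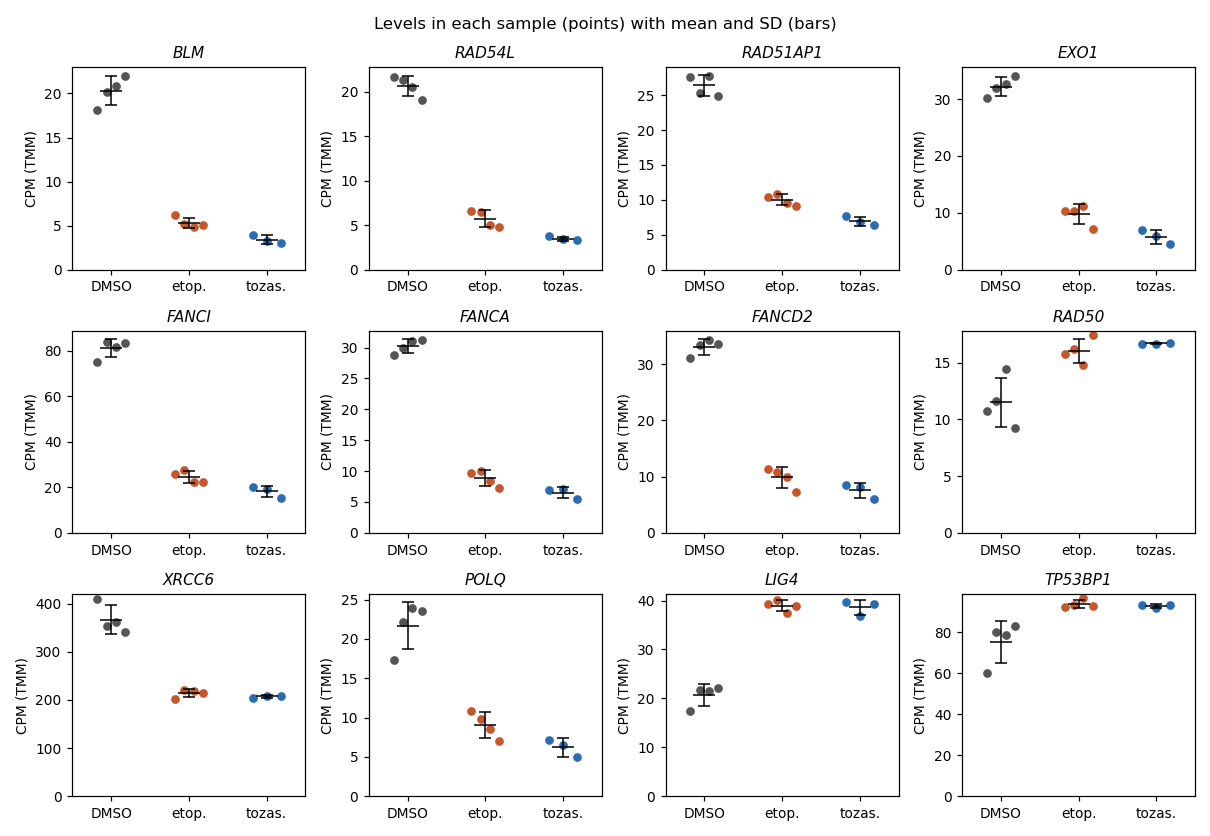
CPM after TMM scaling of 12 genes in each sample (points; DMSO, etoposide and tozasertib from left to right), with the mean and SD of each group as bars and axes from 0. The first 7 panels and POLQ fall under both drugs, XRCC6 falls by a smaller fold, and RAD50, LIG4 and TP53BP1 lie above the DMSO samples.

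The end joining genes moved in both directions, also within the ligase complex. LIG4, the ligase that seals the break, measured 17.4, 21.7, 21.6 and 22.2 CPM in the DMSO samples, 39.3, 40.2, 37.5 and 38.8 CPM in the etoposide samples and 39.8, 36.8 and 39.2 CPM in the tozasertib samples. The lowest drug-treated sample lay above the highest DMSO sample, and LIG4 had the largest rise of any member, 0.91 ± 0.08 (SE; adjusted p = 2.84e-07) under etoposide and 0.90 ± 0.08 (SE; adjusted p = 6.27e-07) under tozasertib. DMSO replicate 1 was the lowest sample, and without it the rises were 0.83 and 0.82. XRCC4, the scaffold that holds ligase IV, was by contrast 1.48-fold and 1.37-fold lower. NHEJ1 (chr2:219069355-219160869, minus strand, GRCh38), which encodes the alignment factor XLF, measured 22.7, 25.1, 26 and 26.8 CPM in the DMSO samples, 14.2, 16.3, 17.4 and 17.8 CPM in the etoposide samples and 14.8, 16.2 and 16.1 CPM in the tozasertib samples, and changed by -0.62 ± 0.08 (SE; adjusted p = 2.6e-05) under etoposide and -0.68 ± 0.09 (SE; adjusted p = 2.4e-05) under tozasertib. Both falls were called in all 20 alternatives, at -0.67 to -0.35 and -0.73 to -0.38 on the log2 scale. NHEJ1 overlaps a protein-coding gene on the same strand that held 111.3 reads on average against 647.5 for NHEJ1.

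The subunits of Ku, which holds the broken ends, both fell by less than 2-fold. XRCC6 (chr22:41621163-41664048, plus strand, GRCh38) measured 409.8, 353.6, 361.6 and 341.4 CPM in the DMSO samples, 201.6, 219.8, 219.3 and 214.8 CPM in the etoposide samples and 204.0, 208.6 and 209.0 CPM in the tozasertib samples. On the log2 scale it changed by -0.78 ± 0.06 (SE; adjusted p = 1.64e-07) under etoposide and -0.82 ± 0.07 (SE; adjusted p = 2.48e-07) under tozasertib. XRCC5, the other subunit, was 1.25-fold lower under each drug, -0.32 ± 0.05 (SE; adjusted p = 0.000203) under etoposide and -0.33 ± 0.06 (SE; adjusted p = 0.000382) under tozasertib. PRKDC, the kinase that Ku recruits, measured 141.4, 177.8, 189.1 and 236.5 CPM in the DMSO samples, 164.5, 170.5, 183.1 and 182.2 CPM in the etoposide samples and 162.5, 156.5 and 158.1 CPM in the tozasertib samples. The drug-treated samples lay within the wide DMSO range. PRKDC was not called, at -0.09 ± 0.11 (SE; adjusted p = 0.528) under etoposide and -0.23 ± 0.12 (SE; adjusted p = 0.133) under tozasertib. Its value depended on the processing and on DMSO samples that differed by gene length. Without DMSO replicate 1 it was called lower, at -0.20 and -0.34 on the log2 scale (adjusted p = 0.0429 and 0.00372), and with an offset for transcript length at -0.34 and -0.62 (adjusted p = 0.000996 and 1.31e-05). Over the 20 alternatives it ran from -0.34 to 0.15 under etoposide (called in 2) and from -0.62 to 0.11 under tozasertib (called in 4). The direction of PRKDC was therefore not settled. Protein-coding transcripts took 43.7% to 86.8% of its reads with DMSO.

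DCLRE1C, which encodes the nuclease Artemis, measured 17.1, 18.2, 18.8 and 22 CPM in the DMSO samples, 15.8, 15.6, 13.2 and 13.5 CPM in the etoposide samples and 17, 15.9 and 17.5 CPM in the tozasertib samples. It was called lower under etoposide, -0.38 ± 0.09 (SE; adjusted p = 0.00282), and not under tozasertib, -0.17 ± 0.1 (SE; adjusted p = 0.142). The difference between the drugs was 0.21 ± 0.10 (SE) and was not called (adjusted p = 0.212), and without DMSO replicate 1 the fall under tozasertib was called too (adjusted p = 0.0497).

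The genes that set the choice between routes also parted. TP53BP1 (chr15:43403061-43510728, minus strand, GRCh38), which shields ends from resection, measured 60.2, 79.9, 78.5 and 82.8 CPM in the DMSO samples, 92.1, 93.3, 96.8 and 92.9 CPM in the etoposide samples and 93.4, 91.6 and 93.5 CPM in the tozasertib samples. All drug-treated samples were above all DMSO samples, and the log2 fold change was 0.32 ± 0.08 (SE; adjusted p = 0.0051) under etoposide and 0.30 ± 0.09 (SE; adjusted p = 0.0101) under tozasertib. DMSO replicate 1 was again the lowest sample, and without it the rises were 0.22 and 0.20 (adjusted p = 0.00048 and 0.00137). The effectors of TP53BP1 did not rise with it: RIF1 was 1.47-fold and 1.29-fold lower, SHLD2 was 1.28-fold and 1.27-fold lower, and SHLD1 was not called, at 0.03 ± 0.16 (SE; adjusted p = 0.889) under etoposide and -0.15 ± 0.18 (SE; adjusted p = 0.467) under tozasertib. The RIF1 call under tozasertib (adjusted p = 0.0338) was lost in 9 of 20 alternatives, among them those without DMSO replicate 3 or 4 and without tozasertib replicate 2 or 4 (log2 -0.37 to -0.21).

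POLQ (chr3:121431431-121545988, minus strand, GRCh38), polymerase theta, behaved unlike the rest of its class. It measured 17.3, 22.1, 24 and 23.5 CPM in the DMSO samples, 10.8, 9.85, 8.53 and 7.05 CPM in the etoposide samples and 7.15, 6.55 and 4.92 CPM in the tozasertib samples. The groups did not overlap with DMSO, and the log2 fold change was -1.26 ± 0.15 (SE; adjusted p = 9.09e-06) under etoposide and -1.80 ± 0.17 (SE; adjusted p = 1.04e-06) under tozasertib, within the range of the recombination and Fanconi genes.

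The promoters of the members were then read for the letters bound by factors of the cell cycle. Windows of 300 bases, 250 before and 50 after the transcription start, were taken from RefSeq (GRCh38.p14), and 33 of the 41 members had at least 1 window. E2F factors, activators and repressors of S phase genes, were searched as TTTGGCGC, TTTCCCGC, TTTGCCGC and TTTCGCGC on both strands. The site was found in 5 of 25 recombination and Fanconi genes (20%), in 1 of 8 end joining genes (12.5%), in 6.49% of the tested genes with a window and in 3.99% of all genes with a window. The CHR element, bound by complexes that repress mitotic genes in resting cells and searched as TTTGAA and TTCGAA on both strands, was found in 2 of 25 (8%), 2 of 8 (25%), 15.9% and 19.5%. A match is a description of letters, and a window without a match says nothing of the factor. Of all 29 recombination and Fanconi genes, those without a window included, 82.8% were lower under each drug, a share that was not split by match. In the end joining class, also taken whole, 66.7% were lower under etoposide and 58.3% under tozasertib, against 30.6% and 29.4% of all genes. The share lower among all genes with a match was not counted. The genes with an E2F match were EXO1, XRCC2, FANCA, FANCC and FANCD2, and in the other class XRCC6, all of which fell under both drugs. Stretches of 200 bases holding the matches of the first 5 are given 5′ to 3′ on the strand of the gene, with the E2F letters in capitals (as their reverse complement where the match is on the other strand). The stretches end 30 bases into the transcript for EXO1, FANCD2 and XRCC2 and before the start for FANCC and FANCA. EXO1 and FANCC each had a further window, without E2F letters, that is not shown.
EXO1 (chr1:241848034-241848233, plus strand): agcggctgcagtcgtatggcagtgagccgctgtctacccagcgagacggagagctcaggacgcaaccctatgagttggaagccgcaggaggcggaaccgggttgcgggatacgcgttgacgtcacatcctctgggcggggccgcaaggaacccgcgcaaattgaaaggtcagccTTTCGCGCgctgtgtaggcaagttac
FANCD2 (chr3:10026267-10026466, plus strand): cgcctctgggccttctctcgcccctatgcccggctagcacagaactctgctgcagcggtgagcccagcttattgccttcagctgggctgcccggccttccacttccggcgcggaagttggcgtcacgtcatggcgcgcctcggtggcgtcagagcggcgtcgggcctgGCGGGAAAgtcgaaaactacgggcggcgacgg
XRCC2 (chr7:152676112-152676311, minus strand): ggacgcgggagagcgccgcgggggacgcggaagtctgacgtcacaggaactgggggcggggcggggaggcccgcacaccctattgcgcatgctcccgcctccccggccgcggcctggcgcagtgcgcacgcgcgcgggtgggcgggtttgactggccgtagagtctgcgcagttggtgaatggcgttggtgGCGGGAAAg
FANCC (chr9:95317730-95317929, minus strand): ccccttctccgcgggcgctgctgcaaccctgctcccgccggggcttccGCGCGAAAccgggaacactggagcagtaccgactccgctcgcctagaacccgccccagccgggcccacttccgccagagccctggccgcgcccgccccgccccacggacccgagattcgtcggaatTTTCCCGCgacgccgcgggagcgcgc
FANCA (chr16:89816668-89816867, minus strand): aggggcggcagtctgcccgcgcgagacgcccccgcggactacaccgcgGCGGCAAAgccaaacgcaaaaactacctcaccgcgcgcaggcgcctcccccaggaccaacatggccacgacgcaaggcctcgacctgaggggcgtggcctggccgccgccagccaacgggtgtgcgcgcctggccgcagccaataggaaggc

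The members with the largest falls, BLM and RAD54L, and the risers LIG4 and RAD50 held none of the searched E2F letters in these windows, and neither did PALB2 and FANCF, which were not called. No relation between a match and the size of a change was tested. BLM, RAD54L, LIG4 and RAD50 are shown for comparison over 200 bases placed as for EXO1, FANCD2 and XRCC2. RAD54L and LIG4 had further windows, also without E2F letters, that are not shown.
BLM (chr15:90717176-90717375, plus strand): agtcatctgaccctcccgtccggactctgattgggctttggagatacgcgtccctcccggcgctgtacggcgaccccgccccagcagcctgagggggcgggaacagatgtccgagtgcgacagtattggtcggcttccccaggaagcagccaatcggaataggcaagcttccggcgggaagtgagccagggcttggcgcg
RAD54L (chr1:46247518-46247717, plus strand): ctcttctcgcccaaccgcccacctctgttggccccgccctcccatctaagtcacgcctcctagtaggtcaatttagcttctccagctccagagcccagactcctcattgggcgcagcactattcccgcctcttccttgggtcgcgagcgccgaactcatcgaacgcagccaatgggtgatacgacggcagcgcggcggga
LIG4 (chr13:108218320-108218519, minus strand): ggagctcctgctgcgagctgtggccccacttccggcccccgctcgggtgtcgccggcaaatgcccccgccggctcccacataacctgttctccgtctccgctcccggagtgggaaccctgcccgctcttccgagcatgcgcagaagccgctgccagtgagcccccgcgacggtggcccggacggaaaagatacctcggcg
RAD50 (chr5:132556807-132557006, plus strand): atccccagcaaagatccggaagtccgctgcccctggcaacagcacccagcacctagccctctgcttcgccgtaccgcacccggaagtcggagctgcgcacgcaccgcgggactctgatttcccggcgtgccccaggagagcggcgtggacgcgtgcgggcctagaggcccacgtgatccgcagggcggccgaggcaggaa

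Compared directly, tozasertib left some of the recombination and Fanconi genes lower than etoposide did, and no end joining gene was called. Of the 29 recombination and Fanconi genes, 8 were lower with tozasertib and none was higher, with a median difference of -0.30 on the log2 scale. At an unadjusted p under 0.05, 2 of them were higher, NBN and FANCF, both named after their values were seen. More of them were lower at that threshold than were called, among them XRCC2, DNA2 and FANCD2. None of the 12 end joining genes was called in either direction by edgeR, with a median of -0.01. At an unadjusted p under 0.05, 1 of them was lower, and DESeq2 called 1 lower. Of all 17033 genes, 4142 had an unadjusted p under 0.05 in either direction, and 11.1% were called, 5.45% lower and 5.66% higher. The 8 genes were RAD54L, RAD51AP1, BLM, EXO1, BRCA1, FANCA, FANCG and FANCI.

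RAD54L differed by -0.72 ± 0.13 (SE; adjusted p = 0.00256), RAD51AP1 by -0.53 ± 0.09 (SE; adjusted p = 0.00297), BLM by -0.62 ± 0.13 (SE; adjusted p = 0.00673) and EXO1 by -0.75 ± 0.16 (SE; adjusted p = 0.00689). In all 4 the highest tozasertib sample was below the lowest etoposide sample. These 4 were named for the smallest adjusted p in this comparison, so the separation is no further evidence. The share of all genes separated in this way was not counted. The calls of RAD54L, RAD51AP1 and EXO1 held in all 20 alternatives, whereas those of the other 5 did not. The call of BRCA1 was lost without etoposide replicate 1, 2 or 3 or tozasertib replicate 2 or 4 (log2 -0.66 to -0.47), that of FANCA without etoposide replicate 1 or 2 or any tozasertib replicate (-0.51 to -0.35), and that of FANCI without etoposide replicate 2 or tozasertib replicate 4 (-0.37 and -0.32). The count of 8 became 14 with DESeq2, 4 with the length offset, 5 without etoposide replicate 2 or without tozasertib replicate 4, and 12 without etoposide replicate 4. Genes that gained a call when 1 sample was left out were XRCC3 and BRIP1 (DMSO replicate 1 or etoposide replicate 4), DNA2 and FANCD2 (etoposide replicate 4) and FANCC (DMSO replicate 1 or etoposide replicate 1), at -0.62 to -0.30. The replication and mitosis lists were lower with tozasertib as well, 24 of 33 and 20 of 20 genes, with medians of -0.46 and -0.75.

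**Figure D4:**
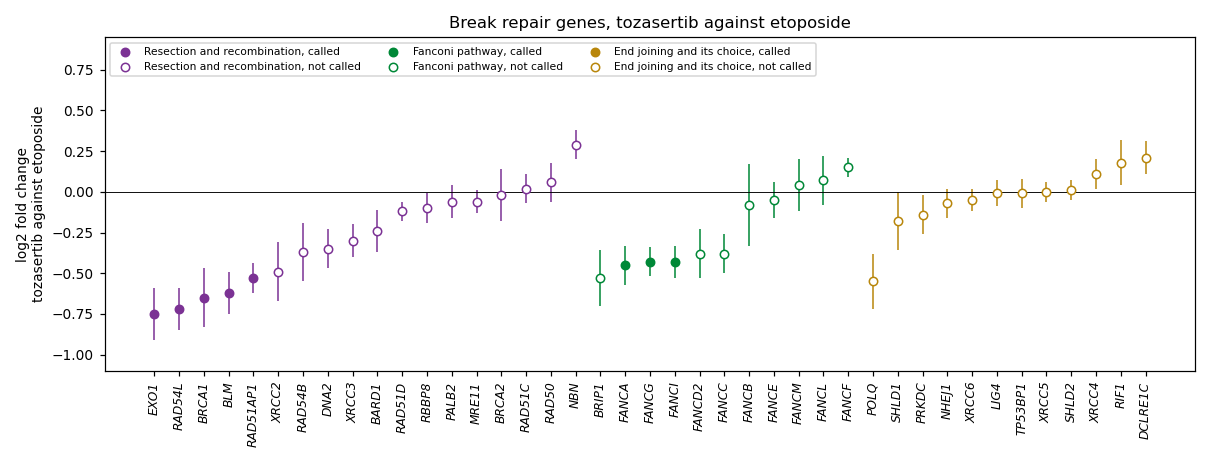
Log2 fold change of tozasertib against etoposide for each of the 41 genes, with the standard error as a vertical bar. Filled points passed an adjusted p of 0.05. All 8 filled points are recombination (violet) or Fanconi (green) genes below 0, and the end joining genes (ochre) lie around 0 with POLQ as the lowest at -0.55.

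POLQ, at -0.55 ± 0.17 (SE; adjusted p = 0.0559), was the end joining gene with the largest difference and just missed the threshold. It was called in 7 of 20 alternatives, including DESeq2 (adjusted p = 0.00966), and without DMSO replicate 1 (-0.55, adjusted p = 0.0189) or etoposide replicate 4 (-0.65, adjusted p = 0.0274). NBN pointed the other way, at 0.29 ± 0.09 (SE; adjusted p = 0.0594), with every tozasertib sample above every etoposide sample, and was called higher in 5 alternatives (log2 0.28 to 0.30), among them those without DMSO replicate 1 or 4. LIG4, TP53BP1, XRCC5 and XRCC6 differed between the drugs by -0.01 ± 0.08, -0.01 ± 0.09, 0.00 ± 0.06 and -0.05 ± 0.07 (SE).

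Levels of different genes can be compared only per transcript length, in TPM. With DMSO, the Ku subunits XRCC5 and XRCC6 stood far above all other members, at 278.4 ± 29.5 and 254.1 ± 5.64 TPM (SD, n = 4), and PRKDC followed at 51.3 ± 3.69 TPM. The highest recombination and Fanconi genes were FANCI, at 40.0 ± 11 TPM, and RAD51AP1, at 29.9 ± 4.77 TPM. LIG4 stood at 9.93 ± 2.23 TPM, POLQ at 5.11 ± 1.39, RAD50 at 3.28 ± 1.07 and BRCA2, the lowest, at 1.98 ± 0.227. With tozasertib XRCC5 stood at 275.8 ± 3.26 TPM (SD, n = 3), LIG4 at 21.7 ± 1.11 and TP53BP1 at 26.8 ± 1.18, while FANCI stood at 11.2 ± 0.733 and BLM at 2.46 ± 0.606. TPM were not scaled by TMM and were used here to rank genes within a group, not to test groups.

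A wider set of 75 repair genes, the partners of the members and the proteins that signal a break, was counted in the same fit. L3MBTL1 failed the filter on low counts. Of the other 74, 48 were lower and 7 higher under etoposide, with a median of -0.48, and 49 were lower and 7 higher under tozasertib, with a median of -0.55. These are 64.9% lower and 9.46% higher under etoposide, against 30.6% and 27.7% of all genes, and 66.2% and 9.46% under tozasertib, against 29.4% and 29.9%. USP1, which removes ubiquitin from FANCD2, went from 180.2 ± 5.06 CPM with DMSO to 56.3 ± 4.68 CPM under etoposide and 48.2 ± 3.9 CPM under tozasertib (SD). H2AX, the histone that marks a break, went from 183.6 ± 29 to 51.1 ± 3.04 and 32.6 ± 1.75 CPM. PARP1, a sensor of strand breaks, went from 221.8 ± 3.45 to 109.3 ± 5.85 and 104.5 ± 1.93 CPM. MCM8, a helicase of recombination, was 2.03-fold and 2.54-fold lower, and PSMC3IP, a partner in strand exchange, was 2.55-fold and 3.27-fold lower.

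The partners that rose were few. ABRAXAS1, a scaffold of the complex that restrains resection through BRCA1, was 1.68-fold higher under etoposide (adjusted p = 4.28e-06) and 1.42-fold higher under tozasertib (adjusted p = 0.000248). RECQL5, a helicase that takes the recombinase off DNA, was 1.45-fold higher (adjusted p = 7.34e-05) and 1.65-fold higher (adjusted p = 9.97e-06). BABAM2, of the same complex as ABRAXAS1, and FBH1, another helicase that opposes the recombinase, were 1.27-fold and 1.13-fold higher under etoposide. WDR48, the cofactor of USP1, was 1.1-fold higher under etoposide and 1.21-fold higher under tozasertib. POLM, a polymerase of end joining, was 1.44-fold higher under tozasertib. Of the other risers, RAD52, a recombination partner, was 1.31-fold and 1.36-fold higher under etoposide and tozasertib. APLF, an end joining partner, was 1.32-fold and 1.28-fold higher. ERCC4, a Fanconi partner, was 1.23-fold higher under tozasertib. The lists of these risers mostly fell. Of 12 tested genes that signal a break, 8 were lower under etoposide and 9 under tozasertib, against 30.6% and 29.4% of all genes. UIMC1 and BRCC3 were among them under both drugs, and BABAM1 under tozasertib. Of 32 recombination partners, 22 and 23 were lower, among them FIGNL1 (2.5-fold and 2.93-fold) and RTEL1 (1.8-fold and 1.83-fold). Tozasertib against etoposide gave 7 lower (9.46%) and none higher of the 74, against 5.45% and 5.66% of all genes, which is near the background, with H2AX, MCM8, TRIP13 and PSMC3IP at -0.65, -0.33, -0.37 and -0.36 on the log2 scale. TRIP13 is the ATPase that releases MAD2L2 from shieldin.

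A gene sum adds all its transcripts, some of which encode no full protein, and for a few members the estimated make-up differed between samples. Protein-coding transcripts took 15.7% to 35.5% of the BRIP1 reads with DMSO and 50.3% to 83.0% with tozasertib, with etoposide between 32.3% and 71.8%. For FANCD2 the share was 54.3% to 89.1% with DMSO, 86.3% to 98.0% with etoposide, which overlapped DMSO, and 93.2% to 93.9% with tozasertib. RAD50 went the other way, with 66.1% to 92.6% in the DMSO samples and 60.6% to 64.8% in the tozasertib samples, while the etoposide samples, at 68.0% to 71.5%, lay within the DMSO range. The ends of the DMSO ranges were the 2 samples that stood apart by gene length: replicate 1 had the highest RAD50 and the lowest FANCD2 share, and replicate 4 the reverse. For BRCA2 the estimate was unstable: it was 0% in tozasertib replicate 2 and 26.4% in etoposide replicate 1, against 93% or more in the other 9 samples. LIG4, XRCC2, FANCF, SHLD1 and SHLD2 had 100% in every sample. The reads are short and from 1 end, so these shares are estimates that were not tested.

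**Figure D5:**
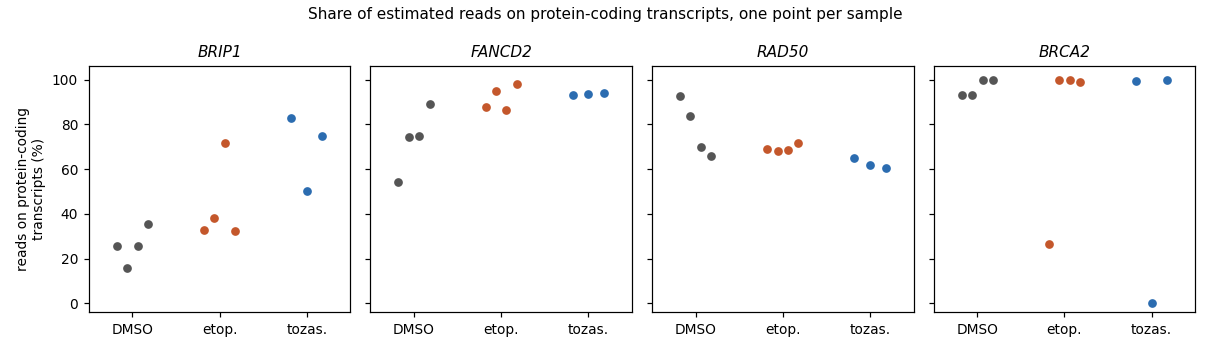
Share of estimated reads on protein-coding transcripts (percent) for 4 genes, with 1 point for each sample. For BRIP1 and FANCD2 the tozasertib points lie above all DMSO points, for RAD50 they lie below them, and BRCA2 has 2 drug-treated samples far from the rest.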

How the data were processed

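Poly(A) RNA of 11 SK-MEL103 samples was sequenced by the authors from strand-specific libraries. Per the file headers, the deposited tables are Salmon outputs with estimated counts, TPM and effective length for each transcript, and the tools credited in the submitters' processing notes are Salmon 1.9.0, cutadapt 4.7, DESeq2 1.40.2 and R 4.4.2, with the build GRCh38. The deposited estimated counts are not normalized. The deposited TPM correct for effective length and have a fixed sum per sample. The study's methods name STAR for its RNA sequencing, while Salmon's options and its transcripts are not stated there.

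GENCODE release 44 gave each transcript its gene (99.6% of 251645 matched; the others held 0.318% to 0.359% of the reads and were left out), and counts were summed to genes and rounded. Genes were tested, two-sided, by quasi-likelihood in edgeR 4.0.16 and R 4.3.3 (TMM, filterByExpr, 1 mean per group, all 11 samples), with Benjamini-Hochberg adjustment over 17033 genes in each of 3 comparisons. Standard errors are the absolute fold change over the square root of F. In simulated counts of 16618 genes for etoposide against DMSO, with 200 changed, 91% of 2-fold and 74% of 1.4-fold changes were called, and 0.0244% of unchanged genes. These counts were drawn independently from pooled means, so they lack the differences by gene length among the DMSO samples. Far fewer genes were changed in them than were called in the data. The simulated rates therefore need not hold for the data. Chi-square per degree of freedom between replicates was 4.22 to 77.2, so no replicates agreed within sampling noise.

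The members and all gene lists were chosen with earlier results of these data known, so no test over a list was made. Values in full were given, by a rule, to the 4 members of each class with the smallest adjusted p for each drug, to members called higher, to the 4 with the smallest adjusted p between the drugs and to those called under 1 drug only, and to up to 4 wider genes per direction. PALB2, FANCF and other members given in full outside this rule were chosen after their values were seen. Alternatives were another scaling (DESeq2 size factors, library size), DESeq2 1.42.0, no filter on low counts, an offset for transcript length, a replicate block, the compared groups alone, leaving out each sample, DMSO replicates 2 and 3 alone and, chosen after seeing the data, protein-coding transcripts alone. Of the immune markers, 1 is not reported here and was left out of the summed level.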

Additional observations from a re-analysis of the deposited data

Results flagged for a closer look

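In 82 groups of 4 samples, 1 for each gene with DMSO and with etoposide, 6 had a sample far from the other 3 by Dixon's test. Chance alone flags about 1 in 20 such groups. In DMSO replicate 1, the sample in which deviations fell with gene length, FANCC was the highest at 21 CPM against 16.2 to 16.7 in the others. LIG4 was the lowest there, at 17.4 CPM against 21.6 to 22.2, and SHLD1 the highest, at 5.25 CPM against 3.23 to 3.45. In etoposide replicate 1, FANCL stood at 16.3 CPM against 10.9 to 11.6, and FANCM at 8.12 CPM against 6.39 to 6.61. In etoposide replicate 4, RAD51D stood at 31.7 CPM against 30.4 to 30.6. Without DMSO replicate 1 the log2 fold changes of FANCC were -1.22 and -1.60 under etoposide and tozasertib, and those of LIG4 were 0.83 and 0.82, all still called.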

How the results depend on the processing

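Of 123 results of single genes (41 genes in 3 comparisons), 91 kept their call in all 20 alternatives. No called fold change turned its direction in any of the 20, while 65 values that were not called changed sign. For each drug against DMSO, the counts of recombination and Fanconi genes called lower stayed within 1.5 times the reported 24, and the exception among the counts was tozasertib, where library size alone gave 2 genes higher (RAD50 and FANCF) in place of 1. That scaling moved the median of all genes to 0.112 for tozasertib against DMSO and the share of higher among all calls to 58.3%, from 50.5%. For tozasertib against etoposide the share of higher was 50.9%, but 40% with DESeq2.

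The median of the recombination and Fanconi genes under etoposide was -1.16 with the length offset, -1.24 with DMSO replicates 2 and 3 alone, -1.13 with protein-coding transcripts, and -1.34 to -1.18 when 1 sample was left out. Under tozasertib it was -1.37 with library size alone, -1.60 with the length offset and -1.62 to -1.45 when 1 sample was left out.

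For tozasertib against etoposide, the recombination and Fanconi genes called lower numbered 14 with DESeq2, 4 with the length offset and 5 to 12 when 1 sample was left out, with a median of -0.37 to -0.25. Those called higher numbered 1 with no filter, 2 in the compared groups alone, 1 with DMSO replicates 2 and 3 alone, and 0 to 1 when 1 sample was left out. End joining genes called higher numbered 1 in the compared groups alone and 1 with DMSO replicates 2 and 3 alone. End joining genes called lower numbered 1 with DESeq2 size factors, with DESeq2, with no filter, with the length offset, in the compared groups alone and with DMSO replicates 2 and 3 alone, and 0 to 1 when 1 sample was left out. The cause of these shifts was not tested.

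Of 10 same-numbered pairs, 2 had a correlation of deviations over 0.1 (range -0.095 to 0.227), and the replicate number was not taken to pair samples. Between etoposide and tozasertib, however, every same-numbered pair was positive, at 0.227, 0.091 and 0.123. Pairs of unlike number, over all groups, ran from -0.207 to 0.16. Whether the drug-treated samples share an effect of replicate was not tested. With a replicate block, the recombination and Fanconi genes called lower were 23 under etoposide, 24 under tozasertib and 8 for tozasertib against etoposide, and of the 123 results 119 kept their call. XRCC2 gained a call between the drugs (adjusted p = 0.0374). Calls were lost for FANCM under etoposide (adjusted p = 0.0615), RIF1 under tozasertib (adjusted p = 0.0703) and BRCA1 between the drugs (adjusted p = 0.0814).

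Low counts limit FANCB, SHLD1, XRCC2 and RAD54B, whose standard errors of 0.16 to 0.25 were among the widest. Overlaps with genes on the other strand (FANCI with POLG, XRCC3 with KLC1, among others) could move reads if strand was not used.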
